A study of Mus musculus with 9 samples.

Results

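The NRF2, glutathione and thioredoxin antioxidant genes were followed here in mouse primary macrophages kept at different oxygen levels. The group comprised 40 genes of the 34866 in the expression tables, given as a list of symbols, and each of the 40 matched 1 Ensembl gene ID. RNA sequencing covered 3 groups of 3 libraries: macrophages in standard oxygen for 7 days, macrophages in standard oxygen moved to 1% oxygen for the last 3 h (acute hypoxia), and macrophages in 1% oxygen for 7 days (chronic hypoxia). All 3 groups were grown with 10% conditioned medium from L929 cells, a fibroblast line that secretes the macrophage growth factor CSF1, and 10% serum, and no allele, strain, age or tissue of origin was given in the labels. The series calls the libraries biological replicates without saying whether they came from separate animals or separate cultures, so the tests measure the spread between these libraries.

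NRF2, the protein encoded by Nfe2l2, is a transcription factor that KEAP1 holds in the cytoplasm and hands over for degradation. Oxidants and electrophiles modify cysteines of KEAP1, and NRF2 then enters the nucleus and binds antioxidant response elements beside genes for glutathione synthesis, thioredoxin recycling, NADPH supply and detoxification. Glutathione and thioredoxin are the main thiol reductants of the cell. In macrophages they meet peroxides made by the NADPH oxidase and by mitochondria.

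The 9 libraries carried the marks of their labels. All 7 macrophage markers (Cd68, Csf1r, Adgre1, Itgam, Fcgr1, Lyz2 and Mertk) were at 1 TPM (the share of a library's transcripts after scaling by gene length, in parts of 1000000) or above in each library, and 5 hypoxia-induced genes (Hilpda, Mxi1, Egln3, Slc2a1 and Pdk1) were higher in each acute and each chronic library than in its standard counterpart. Each library held 10724 to 11208 genes at 1 TPM or above. The sample descriptions carry 1 of 3 codes, called X, Y and Z here, whose meaning is not stated. Each code occurs once in every group, and the Z libraries stood apart on the first principal component (36.9% of the variance over 11065 genes), with Mertk at 2.21 to 3.37 TPM against 21.8 to 33.3 TPM in the other libraries. Libraries with the same code deviated together from their group means, so the code was also used as a block. Values are given below in the order X, Y, Z, and each comparison was also computed without the Z libraries.

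Taken as a sum, the antioxidant genes took up less of the transcriptome in chronic hypoxia. Their summed level was 1.49% ± 0.06 of all transcripts (SD, n = 3) over the standard libraries, 1.5% ± 0.0655 over the acute ones and 0.983% ± 0.0799 over the chronic ones. The chronic libraries ranged from 0.903% to 1.06%, below all 6 others, which ranged from 1.43% to 1.57%. Prdx1 alone made up much of the sum, and without it the levels were 0.963% ± 0.00273, 0.998% ± 0.0341 and 0.769% ± 0.0134. The next most abundant members in standard oxygen were Gpx1 and Esd, and they weighed heavily in that remainder. Their means were 2142.1 and 1433.2 TPM in standard oxygen and 1499.1 and 917 TPM in chronic hypoxia. The sum therefore mainly follows a few abundant genes. The share of mitochondrial genome transcripts was also lower in chronic hypoxia (2.61% to 3.78%, against 4.41% to 5.69% in standard oxygen and 4.53% to 5.34% in acute hypoxia), and its part in the lower sum was not tested. In bulk RNA, fewer cells of a type and less RNA per cell cannot be told apart.

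**Figure D1:**
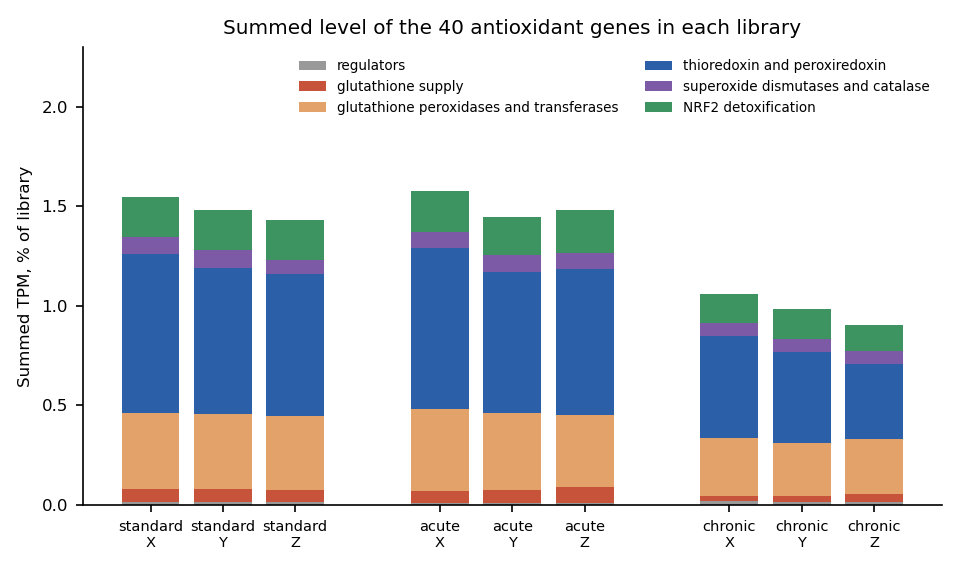
Summed level of the antioxidant genes as a percent of all transcripts, by group, with 1 bar for each library, stacked by the 6 role groups. The 3 chronic libraries lie between 0.903% and 1.06%, and the 6 other libraries between 1.43% and 1.57%.

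In the tests, members of the glutathione, thioredoxin and detoxification classes were lower in chronic hypoxia, and none was called in acute hypoxia. Of the 40 genes, 38 had a mean of at least 1 TPM and were tested (limma on log2(TPM + 1), adjusted over all genes tested, called at an adjusted p under 0.05). Gsta4, a glutathione transferase for lipid aldehydes, stayed between 0 and 0.986 TPM. Nqo1, the NADPH quinone reductase often used as an NRF2 readout, stayed between 0 and 0.218 TPM. Fold changes are given as differences of log2(TPM + 1), and the added 1 makes those of low genes look smaller than they are.

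Chronic hypoxia against standard oxygen called 8 of the 38 members, 1 higher (Prdx4) and 7 lower (Gclm, Gsta3, Gstm1, Txnrd1, Srxn1, Esd and Me1). Among all genes tested, 2.69% were called, 2.1% higher and 0.596% lower. With the sample code as block 17 members were called, 2 higher and 15 lower, against a background of 18.4%, of which 15.1% was higher and 3.3% lower. All 8 calls made without the block were kept with it. The median log2 fold change was −0.20 over the members and 0.16 over all genes tested. The call count without the block depended on the X and Y libraries: it was 0 without the standard X, the standard Y or the chronic Y library and 1 without the chronic X library, but 13 without the chronic Z library and 22 without both Z libraries, 5 higher (Keap1, Gpx3, Prdx4, Prdx5 and Blvra) and 17 lower (background 21.1%, 17% higher and 4.07% lower). Without the filter on low values 3 calls remained (Txnrd1, Srxn1 and Me1), and with the replicate numbers of the titles as block 0.

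Chronic against acute hypoxia called 4 members, all lower in chronic hypoxia (Gclm, Gsta3, Srxn1 and Me1), against a background of 0.695% (0.144% lower). The code block called 17, 2 higher (Nfe2l2 and Prdx4) and 15 lower, against 15.5% of all genes (12.1% higher and 3.42% lower), and the 4 calls were kept. The median was −0.24 over the members and 0.14 over all genes. Removing the X or the Y library of either group brought the count without the block to 0, and removing the chronic Z library raised it to 7. Without both Z libraries it was 19, 4 higher (Nfe2l2, Gpx3, Prdx4 and Blvra) and 15 lower (background 16.3%, 12.8% higher and 3.48% lower), and without the filter on low values it was 0. Both chronic comparisons share the chronic libraries, so they are not independent of each other.

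Counts without any model gave the same direction. They describe a list of members that was chosen with earlier results of these data known, so they are no independent test of it. In chronic hypoxia against standard oxygen, 15 of 38 members were lower in all chronic libraries than in all standard ones (5.39% of all genes) and 3 were higher (24.2%). In chronic against acute hypoxia 17 were lower (5.5%) and 2 higher (22.3%). Compared within codes, 23 members were lower in 3 of 3 pairs of chronic and standard libraries (12.6% of all genes) and 6 higher (46.9%). For pairs of chronic and acute libraries the counts were 23 (12.9%) and 5 (43.5%). Most genes outside the group leaned the other way, and 71.1% of the members had a negative fold change against 28% of all genes tested in the chronic to standard comparison. Because TPM values are shares of a library, they were also rescaled to a common median ratio, which moved the median of all genes from 0.16 to 0.001. The members' median then was −0.38, and 78.9% of the members had a negative fold change against 49.9% of all genes. Rescaling alone called 11 members, 1 higher and 10 lower, against 2.05% of all genes (1% higher and 1.05% lower). Of the members called in neither fit of that comparison, Nfe2l2, Gpx4 and Txn1 turned from a positive to a negative difference. The block with rescaling called 18 members, 1 higher and 17 lower (background 11.5%, 5.62% higher and 5.87% lower). It kept 16 of the 17 block calls and added Prdx3 and Sod2, both lower. The 2 ferritin chains Fth1 and Ftl1 alone made up 9.97% to 13.3% of the transcripts in standard oxygen and 5.32% to 8.1% in chronic hypoxia, a move in composition whose part in the fold changes was not tested beyond that rescaling.

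**Figure D2:**
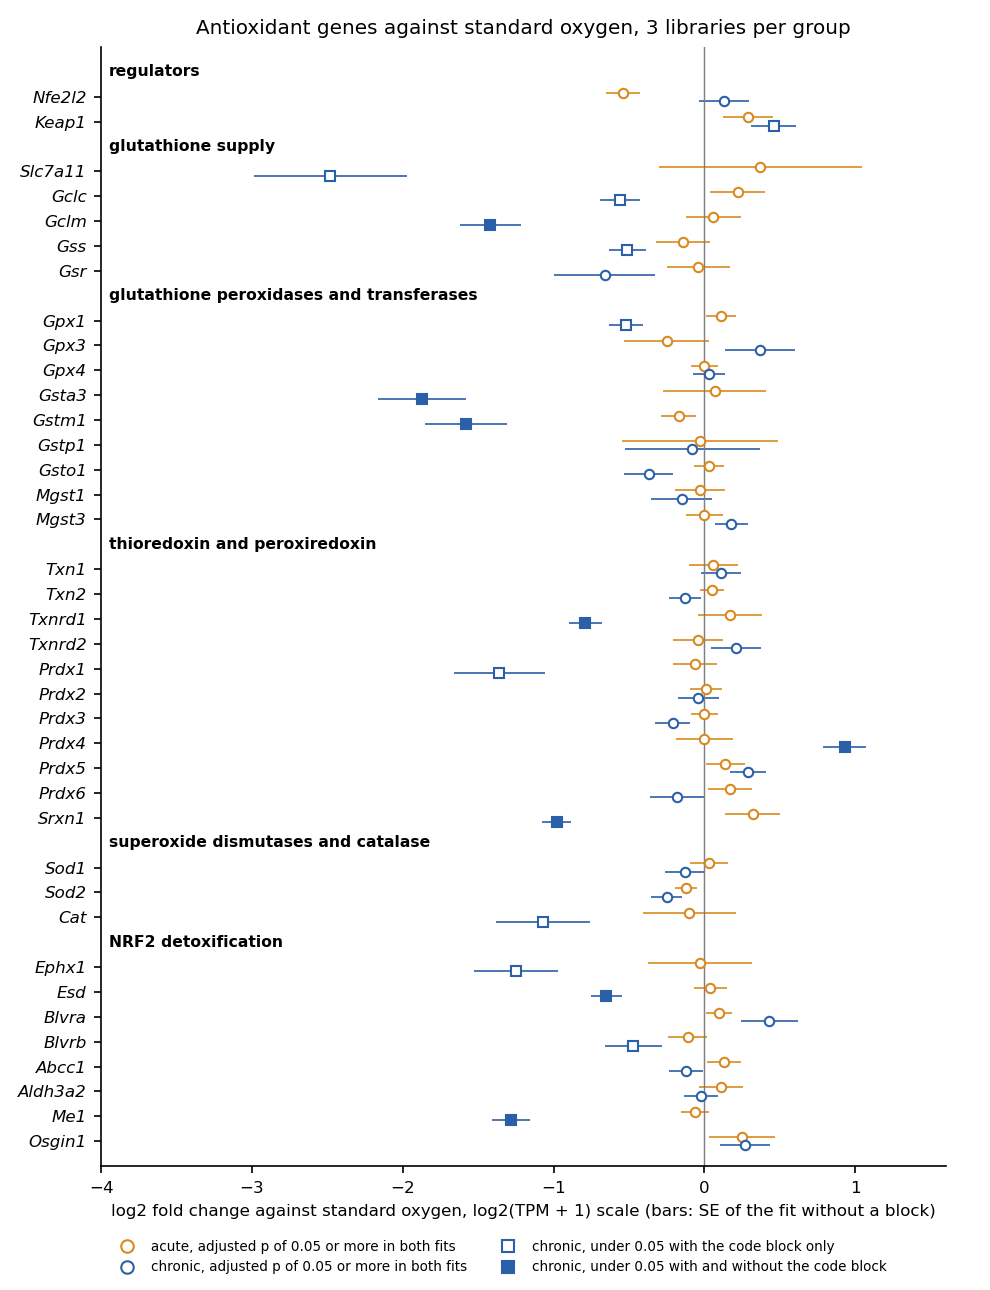
Log2 fold changes of the 38 tested antioxidant genes, on the log2(TPM + 1) scale, grouped by role, for acute and chronic hypoxia against standard oxygen. Points mark the fold and bars its standard error in the fit without a block. Filled squares mark calls with and without the code block, open squares calls with the block only, and open circles no call in either fit. Acute values range from −0.54 to 0.37, while Slc7a11, Gsta3, Gstm1, Gclm, Prdx1 and Me1 lie at −1.28 or below in chronic against standard oxygen.

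Gclm, Gsta3, Srxn1 and Me1 were the members called in both chronic comparisons without a block. Their promoters are printed here because each held the core of the antioxidant response element, TGACNNNGC on either strand, in the RefSeq window of 300 bases (GRCm38.p6, 250 bases before and 50 after the start). Sequences run 5′ to 3′ on the gene's strand, and capitals mark the core and the heptamer TGACTCA on either strand, the AP-1 motif, which can overlap the core. The windows are chr3:122245307-122245606 (+) for Gclm, chr1:21240335-21240634 (+) for Gsta3, chr2:152105274-152105573 (+) for Srxn1 and chr9:86695865-86696164 (−) for Me1.
Gclm: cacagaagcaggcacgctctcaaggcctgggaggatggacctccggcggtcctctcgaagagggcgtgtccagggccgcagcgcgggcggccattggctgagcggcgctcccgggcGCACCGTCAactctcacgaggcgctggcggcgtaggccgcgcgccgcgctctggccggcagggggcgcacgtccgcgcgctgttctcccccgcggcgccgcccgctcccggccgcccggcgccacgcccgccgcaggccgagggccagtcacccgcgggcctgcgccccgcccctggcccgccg
Gsta3: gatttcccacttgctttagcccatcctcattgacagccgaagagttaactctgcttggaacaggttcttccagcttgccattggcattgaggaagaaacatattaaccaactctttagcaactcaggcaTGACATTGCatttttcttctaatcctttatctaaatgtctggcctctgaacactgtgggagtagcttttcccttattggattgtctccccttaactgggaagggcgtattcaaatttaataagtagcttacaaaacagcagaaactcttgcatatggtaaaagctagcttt
Srxn1: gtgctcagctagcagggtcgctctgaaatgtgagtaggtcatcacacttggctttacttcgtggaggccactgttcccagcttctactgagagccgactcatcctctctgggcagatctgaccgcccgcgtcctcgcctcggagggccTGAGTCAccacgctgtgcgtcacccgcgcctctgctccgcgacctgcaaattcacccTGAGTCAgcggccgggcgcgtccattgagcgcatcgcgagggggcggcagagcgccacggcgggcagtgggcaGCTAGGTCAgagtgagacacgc
Me1: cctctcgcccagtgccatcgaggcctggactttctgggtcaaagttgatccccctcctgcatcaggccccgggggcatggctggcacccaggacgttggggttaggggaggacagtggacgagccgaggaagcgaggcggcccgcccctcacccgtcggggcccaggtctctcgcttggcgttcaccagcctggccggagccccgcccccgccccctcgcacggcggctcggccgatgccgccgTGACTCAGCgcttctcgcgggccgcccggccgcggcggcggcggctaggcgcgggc
The core began 134 bases before the start of Gclm, 121 before that of Gsta3, 6 before that of Me1 and 29 after that of Srxn1. Me1 held the heptamer within its core, and the Srxn1 window held it in 2 other places. Short windows with the core in capitals are shown for Prdx1, the most abundant member, at chr4:116685450-116685490 (+), and Txnrd1 at chr10:82859098-82859138 (+), the other members lower in chronic hypoxia with the block that held it.
Prdx1: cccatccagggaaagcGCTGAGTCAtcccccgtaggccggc
Txnrd1: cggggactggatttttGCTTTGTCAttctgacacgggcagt

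Of the 40 members, 35 had a promoter window in the RefSeq table, and Gclc, Gsr, Gsta4, Prdx6 and Abcc1 had none. The core was in 10 of the 35 (28.6%), against 15% of 16789 genes of the tables with a window and 17.1% of the 8510 tested in the chronic to standard comparison. The other 4 with the core were Nfe2l2 itself, Mgst1, Sod1 and Blvra. Among members called lower in chronic hypoxia with the code block, 6 of 14 with a window held it (42.9%), against 4 of the 21 other members (19%). The windows of Slc7a11, Gss, Gpx1, Gstm1, Cat, Ephx1, Esd and Blvrb, also called lower with the block, held no core. The members were chosen with earlier results of these data known, and the difference between these shares was not tested. The heptamer, searched after the windows had been read, was in 5 of 35 members (Gstp1, Me1, Osgin1, Prdx1 and Srxn1) and in 5.4% of genes of the tables. A match describes these letters only, and no binding was measured.

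The regulators are Nfe2l2 and Keap1. Nfe2l2 stood at 115.4, 105.3 and 114.2 TPM in the standard libraries, at 87.1, 71.7 and 70.9 TPM in the acute ones and at 148.2, 128.1 and 96.1 TPM in the chronic ones. All acute libraries lay below all others, while chronic and standard libraries overlapped. The acute difference from standard oxygen, −0.54 on the log2 scale (SE 0.11), did not pass the test (limma adjusted p = 0.223, 0.0771 with the code block). Between chronic and acute hypoxia Nfe2l2 was 0.67 higher (SE 0.179), called with the block but not in the fit without it (limma adjusted p = 0.118 without and 0.0178 with it). Against standard oxygen the chronic difference was 0.13 (limma adjusted p = 0.679), and −0.05 after rescaling (0.931). Keap1, the NRF2 inhibitor, was at 20.2 to 27.8 TPM in standard oxygen and 28.7 to 35.7 TPM in chronic hypoxia, without overlap. It is named here after its values were seen: the block called it higher in chronic hypoxia (0.46, limma adjusted p = 0.0251), and rescaling ended that call (adjusted p = 0.0789).

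The 5 genes of glutathione supply all had lower means in chronic hypoxia than in either other group. Without a block 1 of 5 was called in chronic against standard oxygen, and 4 of 5 with the code block. Gclm encodes the modifier subunit of glutamate-cysteine ligase, the rate-limiting enzyme of glutathione synthesis, and lies on chromosome 3 (122245557 to 122270732, + strand, GRCm38). Its level was 351.9, 349.8 and 233.4 TPM in the standard libraries, 323.3, 349.9 and 287.7 TPM in the acute ones and 120.2, 129.8 and 94.2 TPM in the chronic ones. Every chronic library was below every other library. It fell by 1.42 on the log2 scale against standard oxygen (SE 0.203, limma adjusted p = 0.0293, 0.00567 with the code block), and the 3 code pairs ranged from −1.54 to −1.30. Against acute hypoxia it fell by 1.48 (SE 0.149, limma adjusted p = 0.0256).

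Gclc, the catalytic subunit of the same ligase, moved less. It was at 30.5, 29.5 and 25.4 TPM in the standard libraries, 29.3, 28.9 and 43.7 TPM in the acute ones and 20.3, 20.5 and 16.4 TPM in the chronic ones. The chronic libraries lay below all others, and the acute Z library was the highest. Its log2 fold change against standard oxygen was −0.56 (SE 0.133), called with the block but not in the fit without it (limma adjusted p = 0.0814 without and 0.0165 with it). Gss, glutathione synthetase, was at 14.9, 16.8 and 19.1 TPM in the standard libraries, 15.8, 11.9 and 18.6 TPM in the acute ones and 11.3, 11.5 and 11.8 TPM in the chronic ones. Its chronic libraries were again the 3 lowest, with −0.51 against standard oxygen (SE 0.123, limma adjusted p = 0.0827, 0.0287 with the block and 0.0318 after rescaling alone).

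Slc7a11, the subunit of the cystine and glutamate antiporter that brings in cystine for glutathione, showed the most negative fold change of the members in both chronic comparisons. It was at 10.5, 10.6 and 29.6 TPM in the standard libraries, 11.4, 11.7 and 54.6 TPM in the acute ones and 0.986, 1.32 and 4.15 TPM in the chronic ones. The Z library was the highest of each group, and no chronic library reached any other library. Its log2 fold change was −2.48 against standard oxygen, with code pairs from −2.57 to −2.32. The Z libraries widened the spread within groups (SE 0.507), and the call depended on the fit (limma adjusted p = 0.0604 without a block, 0.00465 with it, 0.0483 after rescaling alone and 0.0021 without the Z libraries). Gsr, the reductase that regenerates glutathione, was at 262.9, 271.3 and 326.6 TPM in the standard libraries, 224.3, 252.9 and 381.6 TPM in the acute ones and 127.3, 145.9 and 315.4 TPM in the chronic ones. Its X and Y chronic libraries were the lowest of all, while the chronic Z library overlapped the other groups. It was −0.66 against standard oxygen (limma adjusted p = 0.296, 0.0864 with the block) and −0.63 against acute hypoxia (0.389, and 0.0333 with the block).

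Among the 9 tested glutathione peroxidases and transferases, 2 were called lower in chronic against standard oxygen without a block and 3 with the code block. Gsta3, an alpha-class glutathione transferase on chromosome 1 (21240589 to 21265661, + strand), was at 39.1, 42 and 19 TPM in the standard libraries, 38.2, 40.3 and 23.6 TPM in the acute ones and 7.93, 7.48 and 8.36 TPM in the chronic ones. The chronic libraries were close together and below all others, and Z was the lowest library of the standard and acute groups. Gsta3 fell by 1.87 on the log2 scale against standard oxygen (SE 0.292, limma adjusted p = 0.0362, 0.0183 with the block) and by 1.94 against acute hypoxia (SE 0.209, adjusted p = 0.0289). Gstm1, a mu-class transferase on chromosome 3 (108012255 to 108017973, − strand), was at 518.8, 452 and 414.3 TPM in the standard libraries, 446.8, 405.3 and 379.5 TPM in the acute ones and 212.7, 167.2 and 100.6 TPM in the chronic ones. The groups did not overlap between chronic hypoxia and the rest. It fell by 1.58 against standard oxygen (SE 0.27, limma adjusted p = 0.0406), a call that ended on rescaling (−1.76, 0.0511) and with moderation without a trend (0.0568). The −1.41 against acute hypoxia was called with the block but not in the fit without it (adjusted p = 0.0671 without and 0.0131 with it). Of the Gstm1 transcript, 14.8% of 75-base stretches recur in other genes such as Gstm2-ps1, so its level is uncertain.

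Gpx1, the abundant cytosolic glutathione peroxidase, was at 2134.0, 2160.9 and 2131.3 TPM in the standard libraries, 2504.4, 2354.8 and 2111.6 TPM in the acute ones and 1564.6, 1363.0 and 1569.7 TPM in the chronic ones. The chronic libraries were the 3 lowest. It was at −0.52 against standard oxygen (limma adjusted p = 0.0645 without the block, 0.0231 with it and 0.0495 after rescaling alone) and at −0.63 against acute hypoxia (0.0733 without the block and 0.0193 with it). Gsto1, an omega-class transferase, was at 152.1, 159.9 and 159.4 TPM in the standard libraries, 151.7, 151.4 and 179.6 TPM in the acute ones and 101.6, 114.1 and 154.1 TPM in the chronic ones. Its X and Y chronic libraries were low and its Z library overlapped both other groups. The change against acute hypoxia was −0.40 (limma adjusted p = 0.251, 0.0427 with the block). Gpx3, Gpx4, Gstp1, Mgst1 and Mgst3 were not called with all libraries, with or without the block. Gpx3, the secreted glutathione peroxidase, was called higher without the Z libraries, at 0.75 against standard oxygen (limma adjusted p = 0.0102, 0.37 with all libraries) and 1.03 against acute hypoxia (0.00733, 0.61 with all). Gpx4, the peroxidase of lipid hydroperoxides, was at 640.9 to 683.1 TPM in standard oxygen and 612.9 to 730.1 TPM in chronic hypoxia. Gstp1, a pi-class transferase, followed the code instead, at 97.5 to 123 TPM in the Z libraries and 42.8 to 48.9 TPM in the others. More than 50% of the stretches of Gpx4 (55.3%) and Gstp1 (57.7%) recur in copies such as Gpx4-ps2 and Gstp2, which leaves both levels uncertain.

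The thioredoxin and peroxiredoxin genes split in direction. Of 11 tested, 3 were called in chronic against standard oxygen (1 higher and 2 lower), and 4 with the code block (1 higher and 3 lower). Prdx1, a cytosolic peroxiredoxin that reduces hydrogen peroxide and is itself reduced by thioredoxin, was the highest member in every library but the chronic Z one, where Gpx1 was higher. It was at 5882.8, 5143.4 and 4662.3 TPM in the standard libraries, 5813.2, 4819.4 and 4478.2 TPM in the acute ones and 2850.7, 2309.0 and 1275.9 TPM in the chronic ones. No chronic library reached any of the others, and in each group the X library was the highest and the Z library the lowest. Its log2 fold change was −1.36 against standard oxygen (SE 0.3, limma adjusted p = 0.0698, 0.0169 with the block) and −1.30 against acute hypoxia (adjusted p = 0.0963, 0.0154 with the block).

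Srxn1 encodes sulfiredoxin, which repairs over-oxidized peroxiredoxins, and lies on chromosome 2 (152105516 to 152111376, + strand). It was at 103.7, 103 and 93.1 TPM in the standard libraries, 106.3, 109.6 and 166.3 TPM in the acute ones and 48.3, 53 and 49.4 TPM in the chronic ones. The chronic libraries were tightly grouped at the bottom, and each acute library lay above each standard one. Srxn1 fell by 0.98 on the log2 scale against standard oxygen (SE 0.0952, limma adjusted p = 0.0101, 0.00711 with the block) and was −1.30 against acute hypoxia (SE 0.183, adjusted p = 0.0486, 0.0571 with moderation without a trend and 0.0508 with a pseudocount of 5). Its acute change of 0.32 did not pass the test (limma adjusted p = 0.866), and was 0.06 without the Z libraries. Txnrd1, the cytosolic thioredoxin reductase on chromosome 10 (82833951 to 82897712, + strand), was at 157.1, 174.4 and 150 TPM in the standard libraries, 143.4, 161 and 253.2 TPM in the acute ones and 85, 100.7 and 92.3 TPM in the chronic ones. Again the chronic group did not overlap the rest, and the acute Z library was the highest. It fell by 0.79 against standard oxygen (SE 0.109, limma adjusted p = 0.0273), and the −0.95 against acute hypoxia was called with the block but not in the fit without it (adjusted p = 0.0912 without and 0.0246 with it).

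Prdx4, the peroxiredoxin of the endoplasmic reticulum, moved the other way. The gene, on chromosome X (155323918 to 155340754, − strand), was at 37.3, 36.3 and 50.7 TPM in the standard libraries, 35.5, 37.9 and 51.4 TPM in the acute ones and 81.2, 78.6 and 76.6 TPM in the chronic ones. All chronic libraries were above all others. It rose by 0.93 on the log2 scale against standard oxygen (SE 0.145, limma adjusted p = 0.0362, 0.0510 with moderation without a trend), and the 0.92 against acute hypoxia was called with the block but not in the fit without it (adjusted p = 0.0598 without and 0.0169 with it). Prdx6, a peroxiredoxin with phospholipase activity, was at 280.9, 256.7 and 314.6 TPM in the standard libraries, 336.8, 264.7 and 361.6 TPM in the acute ones and 248.9, 199.7 and 312.9 TPM in the chronic ones. These groups overlapped, and each chronic library was below its acute counterpart (−0.35, limma adjusted p = 0.363, 0.0408 with the block). Thioredoxin itself (Txn1) was at 366.5 to 419.4 TPM in standard oxygen and 375.6 to 494.2 TPM in chronic hypoxia, and was not called in any comparison, nor were its mitochondrial counterpart Txn2, Txnrd2, Prdx2, Prdx3 and Prdx5, with or without the block. The stretch of transcript shared with other genes was 5.63% for Prdx1, 17.4% for Prdx2 and 11.8% for Prdx5, so those levels are uncertain.

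**Figure D3:**
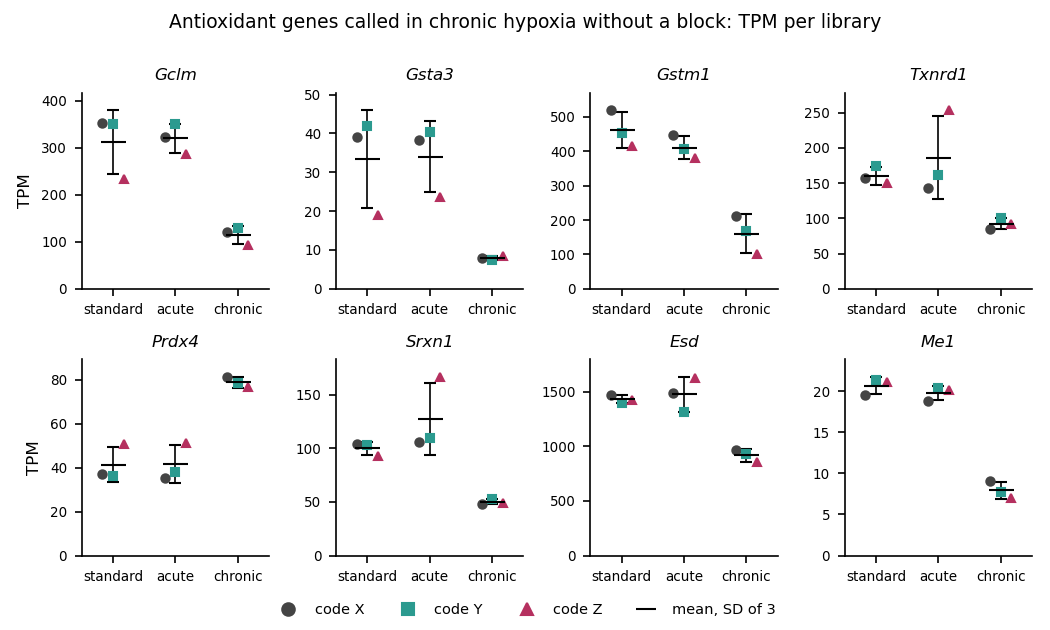
TPM per library of the members called without a block in any comparison, by oxygen group, with points marked by sample code and lines for group means. Gclm, Gsta3, Gstm1, Txnrd1, Srxn1, Esd and Me1 sit lower in all 3 chronic libraries than in any other library, and Prdx4 sits higher.

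Within the role group of superoxide dismutases and catalase, catalase was the one called with the block before rescaling. Cat was at 305.7, 284.8 and 158.8 TPM in the standard libraries, 280.1, 249.6 and 160.4 TPM in the acute ones and 137.4, 134 and 80.3 TPM in the chronic ones. The Z library was the lowest of each group, and even so the chronic values did not overlap the others. The log2 fold change was −1.07 against standard oxygen, from −1.15 to −0.98 over the code pairs, and was called with the block but not in the fit without it (limma adjusted p = 0.119 without and 0.00689 with it). Sod1, the cytosolic superoxide dismutase, was −0.13 and Sod2, the mitochondrial one, −0.25 against standard oxygen, and neither was called (limma adjusted p = 0.595 and 0.218, 0.375 and 0.101 with the block). The chronic libraries of Sod2 lay below all standard ones. Sod2 was called lower with the block and rescaling (limma adjusted p = 0.0469) and without the Z libraries (−0.33, 0.0478).

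The detoxification genes included Me1 and Esd, both called lower in chronic hypoxia against standard oxygen. With the code block 4 of the 8 tested were called, all lower. Me1, the cytosolic malic enzyme that makes NADPH, lies on chromosome 9 (86581371 to 86695953, − strand) and was at 19.5, 21.4 and 21.1 TPM in the standard libraries, 18.8, 20.4 and 20.2 TPM in the acute ones and 9.05, 7.79 and 6.99 TPM in the chronic ones. The standard and acute libraries overlapped, and the chronic ones lay apart below them. It fell by 1.28 on the log2 scale against standard oxygen (SE 0.126, limma adjusted p = 0.0101, 0.00921 with the block) and by 1.22 against acute hypoxia (SE 0.124, adjusted p = 0.0256). Esd, the hydrolase of S-formylglutathione on chromosome 14 (74732297 to 74750765, + strand), was at 1472.9, 1397.1 and 1429.6 TPM in the standard libraries, 1488.0, 1312.4 and 1627.7 TPM in the acute ones and 968.4, 926.9 and 855.6 TPM in the chronic ones. No chronic library overlapped the rest. It fell by 0.65 against standard oxygen (SE 0.101, limma adjusted p = 0.0362), and the −0.68 against acute hypoxia was called with the block but not in the fit without it (adjusted p = 0.0654 without and 0.0189 with it). Me1 shares 18.9% and Esd 7.78% of its stretches with other genes, so both levels are uncertain.

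Ephx1, the microsomal epoxide hydrolase, was at 8.58, 6.95 and 15.6 TPM in the standard libraries, 7.36, 8.17 and 14.5 TPM in the acute ones and 3.3, 3.5 and 3.87 TPM in the chronic ones. Its chronic libraries were the 3 lowest and close together. The difference from standard oxygen was −1.25 (limma adjusted p = 0.0718 without the block, 0.0241 with it and 0.0482 after rescaling alone). Blvrb, biliverdin reductase B, was at 275, 323.5 and 244.3 TPM in the standard libraries, 258.2, 282.4 and 236.5 TPM in the acute ones and 211, 245.8 and 157.3 TPM in the chronic ones. The groups overlapped, but each chronic library was below its counterpart of the same code, by 0.47 on average on the log2 scale against standard oxygen (limma adjusted p = 0.21, 0.0248 with the block). Its relative Blvra, biliverdin reductase A, was at 118.5 to 131.9 TPM in standard oxygen and 127 to 201.4 TPM in chronic hypoxia, a difference of 0.43 that was not called with all libraries (limma adjusted p = 0.24, 0.0704 with the block) and was 0.59, and called, without the Z libraries (0.00628). Abcc1, an exporter of glutathione conjugates, Aldh3a2, a fatty aldehyde dehydrogenase, and Osgin1 were not called in any comparison, with or without the block, before rescaling. The block with rescaling called Abcc1 lower in chronic against acute hypoxia (−0.41, limma adjusted p = 0.0347).

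**Figure D4:**
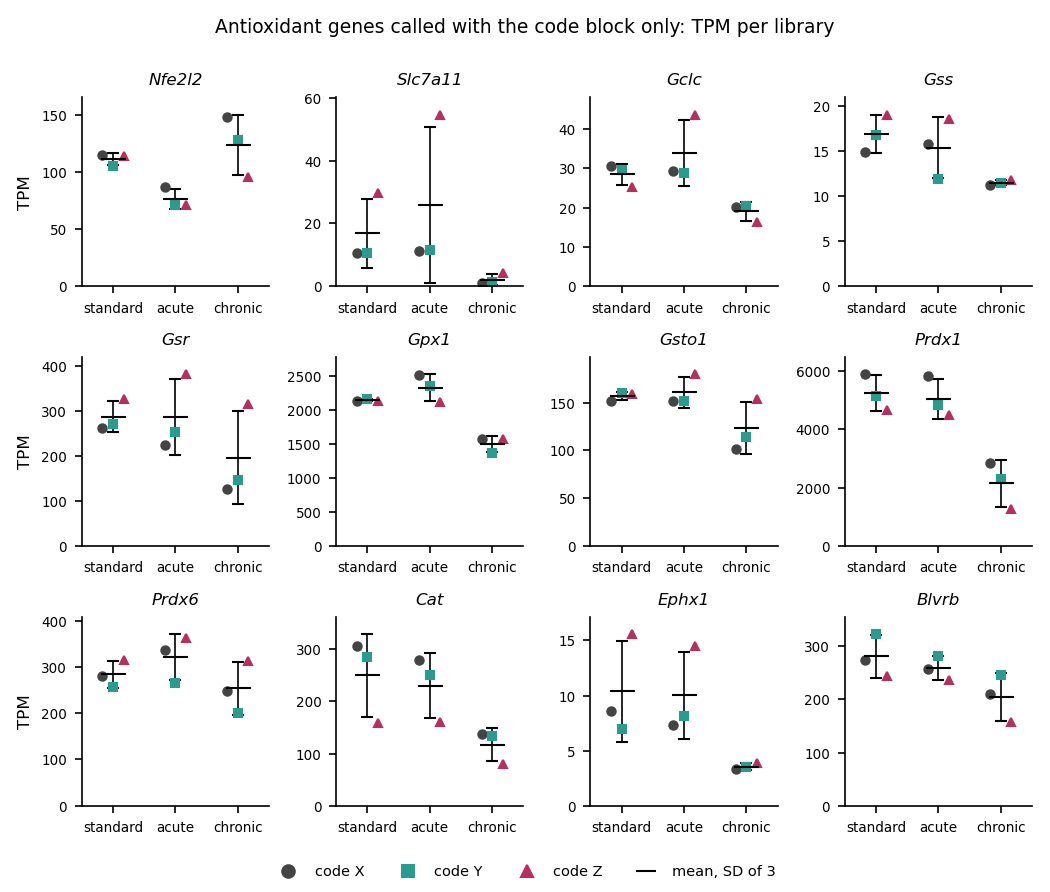
TPM per library of members called with the sample code as block and after rescaling but not in the unscaled fit without a block, in the 3 oxygen groups, with points marked by code and lines for group means. Slc7a11 is higher in the Z library of every group and Cat is lower, while the chronic values of both stay below all others.

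In acute against standard oxygen no antioxidant gene passed the test. Of the 38 members limma called 0 (background 0.0273%), 1 had an unadjusted p under 0.05 (Nfe2l2, 2.63% of the members against 7.14% of all genes) and 5 had one with the code block (13.2% against 14.2%), where again none was called (background 0.71%). Without the Z libraries 0 were called as well (2.95% of all genes). The fit without a block also missed 3 of the 5 hypoxia-induced genes. These were Egln3 (3.24, limma adjusted p = 0.125), Slc2a1 (1.88, 0.125) and Pdk1 (0.79, 0.0568), while Hilpda and Mxi1 were called (0.0119 and 0.0244). With the code block all 5 were called (limma adjusted p from 0.00814 to 0.0299). The median log2 fold change was 0.02 over the members and 0.01 over all genes tested, and the members ranged from −0.54 to 0.37. Groups did not overlap for 3 members: Srxn1 was higher (7.63% of all genes), and Nfe2l2 and Sod2 were lower (4.85%). Within codes, 7 members were higher in 3 of 3 pairs (20.9% of all genes) and 7 lower (16.9%). Srxn1, Txnrd1, Slc7a11 and Gclc were each highest in the acute Z library, and the acute X and Y libraries of Txnrd1 were below their standard counterparts. That library was also the highest for Gsr, Gsto1, Txn1, Prdx5, Prdx6, Sod1, Esd, Abcc1 and Osgin1.

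Other genes of the same pathways were followed with a list of 72, of which 58 could be tested. In chronic against standard oxygen 5 of 58 were called, 1 higher and 4 lower (2.1% and 0.596% of all genes), and with the code block 19, 5 higher and 14 lower (15.1% and 3.3%). Txnip, the thioredoxin-interacting protein that binds and inhibits thioredoxin, was at 26.6, 24.6 and 91.2 TPM in the standard libraries, 183.9, 173 and 101.6 TPM in the acute ones and 342.7, 343.1 and 247.9 TPM in the chronic ones. The groups did not overlap. The Z pair differed least in both comparisons with standard oxygen, and most in chronic against acute hypoxia (1.28 on the log2 scale). Txnip rose by 2.94 on the log2 scale in chronic against standard oxygen (limma adjusted p = 0.0391), while the acute difference of 1.89 did not pass with all libraries (adjusted p = 0.411) and was 2.75, and called, without the Z libraries (0.0014). The 4 lower genes were Glrx, a glutaredoxin (−1.08, adjusted p = 0.0391), Sqstm1, the p62 adaptor that binds KEAP1 (−0.99, 0.0314), Ptgr1, a prostaglandin and alkenal reductase (−0.78, 0.0366), and Cbr3, a carbonyl reductase (−0.74, 0.0354). The call of Glrx ended on rescaling (adjusted p = 0.0541), and moderation without a trend ended those of Glrx (0.0546), Txnip (0.0537) and Ptgr1 (0.0546).

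Hmox1, the haem oxygenase that NRF2 and other factors induce, differed between the 2 hypoxia groups. It was at 2479.1, 2390.8 and 1701.3 TPM in the standard libraries, 3637.1, 3401.1 and 3512.7 TPM in the acute ones and 1750.9, 1704.5 and 1179.6 TPM in the chronic ones. All acute libraries were above all standard ones. The chronic group overlapped the standard group, but each chronic library was below the standard library of the same code. In chronic against acute hypoxia it fell by 1.21 (limma adjusted p = 0.0493), and Ptgr1 by 1.01 (adjusted p = 0.0428), the 2 of 58 called there (0.695% of all genes), against 18 with the code block, 3 higher and 15 lower (12.1% and 3.42%). The call of Hmox1 ended on rescaling (adjusted p = 0.0526) and with a pseudocount of 5 (0.0513), and those of both ended with moderation without a trend (0.0568 each). The acute difference of Hmox1, 0.70, did not pass with all libraries (limma adjusted p = 0.273, 0.103 with the block) and was 0.53, and called, without the Z libraries (0.0337). In acute against standard oxygen limma called 0 of the 58 with all libraries, with or without the block, while 6 and 9 had an unadjusted p under 0.05 (10.3% and 15.5%, against 7.14% and 14.2% of all genes). Without the Z libraries 3 were called, all higher (background 2.95%, 2.07% higher): Txnip, Hmox1 and Sesn2, a sestrin, which is named here after its values were seen (0.90, limma adjusted p = 0.0172).

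**Figure D5:**
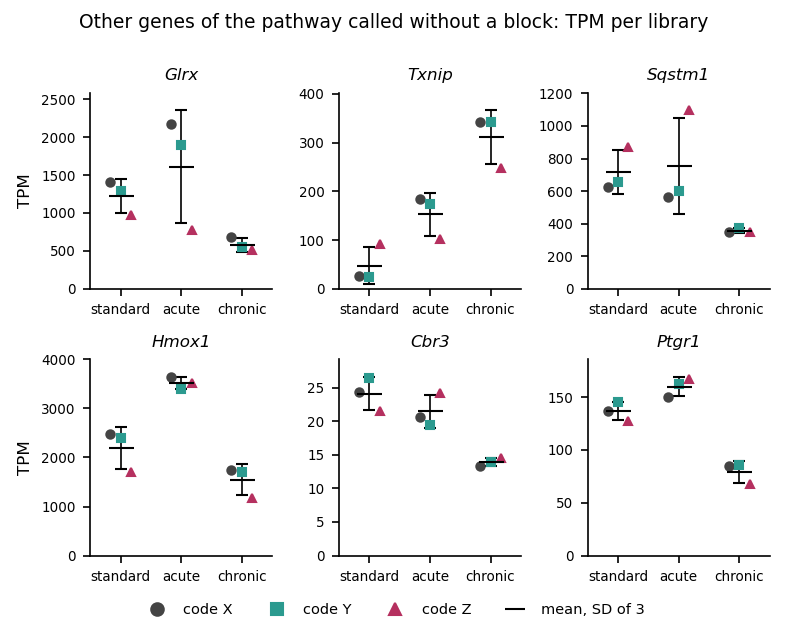
TPM per library of the genes of the wider pathway list called without a block, by oxygen group, with points marked by code and lines for group means. Txnip is higher in every chronic library than in any other, Glrx, Sqstm1, Ptgr1 and Cbr3 are lower there, and Hmox1 is highest in the acute libraries.

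Markers of other cell types were near 0 apart from S100a8. The summed macrophage markers were at 61027.3 to 69833.4 TPM in the standard libraries, 55365.8 to 73287.5 TPM in the acute ones and 61134.1 to 67236.6 TPM in the chronic ones. Most of that sum was Lyz2, at 52792.6 to 70403.0 TPM over the libraries. Csf1r was at 578.7 to 778.4 TPM in the chronic libraries and 438.8 to 513.1 TPM in the others. Itgam was at 728.6 to 806.5 TPM against 480.7 to 624.9 TPM, and Adgre1 at 252.5 to 512.2 TPM against 475.7 to 581.2 TPM. The chronic ranges of Cd68, Fcgr1, Mertk and Lyz2 overlapped those of the other libraries. The 8 neutrophil markers summed to 898.5 to 1595.5 TPM in the standard libraries, 940.5 to 1909.7 TPM in the acute ones and 260 to 584.5 TPM in the chronic ones, and were nearly all S100a8. Without it they summed to 1.76 to 4.76 TPM, and S100a9 was listed at 0 in 8 of 9 libraries. The part of these markers in the lower antioxidant levels was not tested.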

How the data were processed

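RNA was sequenced from 9 libraries of mouse macrophages, 3 per group. The authors deposited TPM values per Ensembl gene in 3 tables, 1 per pair of groups, and the 9 columns were identical in each pair of tables that hold them. FastQC, STAR, featureCounts and the build GRCm38 are named in the submitters' processing notes, and the step from counts to TPM, the annotation and the use of strand are not given in the sources used here. Without strand, overlapping and antisense genes cannot be told apart. TPM values sum to 1000000 per library and keep no depth, so the depth is unknown and no interval from it is given.

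Gene symbols came from the GENCODE annotation of GRCm38. In each comparison, genes with a mean of at least 1 TPM over its 6 libraries were tested with limma 3.58.1 in R 4.3.3 (two-sided, moderated with a trend) on log2(TPM + 1), with a pseudocount of 1 and Benjamini-Hochberg adjustment over all genes tested. The script was tested on simulated data. Replicate numbers in the titles did not pair the standard libraries with the others: deviations from the group means correlated at −0.472 and −0.515 for 1 number. Between acute and chronic libraries the numbers and the codes give the same pairs. The codes in the descriptions did, with a correlation between 0.378 and 0.633 for each pair, all above the limit of 0.1. Alternatives were blocks, rescaling, other filters and pseudocounts, and leaving out libraries.

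The members, the roles and the wider list of 72 genes were chosen with earlier results of these data known. All libraries are shown for members called without a block, or called with the code block both before and after rescaling. Genes of the wider list are named where called without a block. A level was termed uncertain where at least 5% of a transcript's 75-base stretches recur in other genes.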

Additional observations from a re-analysis of the deposited data

Results flagged for a closer look

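For 4 members the chronic and the acute response, each against the same 3 standard libraries, differed by a test of the difference itself, which equals chronic against acute hypoxia. Gclm differed by −1.48 on the log2 scale (limma adjusted p = 0.0256) and was lower in 3 of 3 code pairs. Gsta3 differed by −1.94 (adjusted p = 0.0289), Srxn1 by −1.30 (0.0486) and Me1 by −1.22 (0.0256), each lower in 3 of 3 pairs. Without the Z libraries the same differences were −1.42, −2.21, −1.08 and −1.13.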

How the results depend on the processing

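Leaving out 1 replicate in turn gave 0 to 13 called members in chronic against standard oxygen (8 with all libraries) and 0 to 7 in chronic against acute hypoxia (4 with all). The code replicate block gave 17 and 17, the block with rescaling 18 and 20, and leaving out the Z libraries 22 and 19, or 28 and 24 when the code block was added. With the title replicate block the counts were 0 and 17, without a filter on low values 3 and 0, and all 9 libraries in 1 fit gave 11 in chronic against acute hypoxia. The cause was not tested. In acute against standard oxygen the count was 0 under each alternative. Rescaling gave 11 and 4, moderation without a trend gave 6 and 3, while 8 and 3 came from a pseudocount of 5, and 8 and 4 from a pseudocount of 0.1 or a filter of 5 TPM. Equal counts need not be the same genes: rescaling lost Gstm1 and gained Slc7a11, Gss, Gpx1 and Ephx1 in chronic against standard oxygen.

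Over the whole table the code block moved the calls from 3 to 78 (acute against standard), 298 to 2039 (chronic against standard) and 77 to 1724 (chronic against acute). Rescaling turned the split of higher and lower calls from 232 and 66 to 111 and 116 in chronic against standard oxygen, and from 61 and 16 to 29 and 44 in chronic against acute hypoxia. The 40 fold changes that were called without a block, or for members with the code block before and after rescaling, gave 720 values under the alternatives, of which 0 changed direction, 122 lost their call and 115 gained one. Limits are the unknown depth, 3 libraries per group, TPM as shares of a library and the unexplained codes.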
